A study of Mus musculus with 13 samples.

Results

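A set of 5 genes that mark the endothelium, the cell layer that lines blood vessels, were followed in a map of 5-hydroxymethylcytosine (5hmC) in mouse breast tumours. Pecam1, Cdh5 and Esam encode adhesion molecules of the contacts between endothelial cells. Eng encodes endoglin, a co-receptor for ligands of the TGF-beta family on endothelial cells, and Vwf encodes von Willebrand factor, the clotting protein that endothelial cells store and secrete. Each gene body lies within 1 bin of 300 kb. The genes were chosen with earlier results of these data known, and their bins were taken by gene position. The bins make 5 of the 8576 analysed here.

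TET enzymes, which need oxygen, oxidise 5-methylcytosine to 5hmC, and the product is often abundant in the bodies of active genes and at active enhancers. Endothelial cells are joined by VE-cadherin, the product of Cdh5, and by immunoglobulin-type molecules such as PECAM-1 and ESAM. Hypoxic tumours tend to have leaky, poorly covered vessels, and the models of the study are described as changing tumour oxygenation in opposite directions.

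All 13 samples were breast tumours induced by PyMT, the polyoma middle T oncogene, in FVB mice, and each column of the data is 1 tumour of 1 mouse. In the first model, mice of 16 weeks were PHD2+/- (n = 4) or PHD2+/+ (n = 3). PHD2 is an oxygen sensor that marks the transcription factor HIF for destruction, and per the labels a heterozygous tumour has its vessels and oxygenation restored. In the second model, mice of 12 weeks had a hydrodynamic injection of the plasmid PRRL2-sFlk1 (n = 3) or of empty PRRL2 (n = 3). sFlk1 is a soluble form of a VEGF receptor, and the labels describe its tumours as more hypoxic. The labels do not give the cells in which the plasmid is active, nor a tissue-restricted Phd2 allele. The 2 models differ in age, so values are compared within a model.

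5hmC was read by shallow tet-assisted bisulfite sequencing (TAB-seq), in which 5hmC is protected and the other cytosines are converted. The authors deposited 1 percentage per bin and tumour, without read counts. The depth behind each value is therefore unknown and no counting interval can be given. DNA came from whole tumours, and each bin holds other genes too. The share of endothelial cells, 5hmC per endothelial cell and 5hmC in other cells therefore cannot be told apart. No RNA was read, so the endothelial content of a tumour cannot be checked with markers. Genome-wide mean 5hmC was 2.87% ± 0.265 in Phd2 heterozygous tumours (SD, n = 4) and 2.34% ± 0.137 in wild-type tumours (SD, n = 3). It was 2.46% ± 0.0670 in sFlk1 tumours and 2.68% ± 0.158 in empty vector tumours (SD, n = 3 each).

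A value belongs to a whole bin, of which the named gene fills only a part. The Vwf body (chromosome 6, 125552948 to 125686679, GRCm38) covers 44.6% of its bin, which also holds Cd9 and the end of Ano2. The Pecam1 body (chromosome 11, 106654213 to 106715281) covers 20.4%, and Tex2 covers 37.1% of the same bin. The Cdh5 body (chromosome 8, 104101613 to 104144504) covers 14.3% of a bin shared with Bean1, Tk2 and genes of the Cmtm family. The Eng body (chromosome 2, 32646595 to 32682669) covers 12.0% of a bin with 11 protein-coding genes, Slc25a25 and Fam102a among them. The Esam body (chromosome 9, 37528089 to 37538319) covers only 3.41% of a bin with 11 protein-coding genes, among them Siae, Msantd2 and the first olfactory receptor genes of a cluster. Esam is thus the gene whose own body fills the smallest part of its bin.

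Of the 5 genes, 1 has a promoter in the RefSeq promoter table used (GRCm38.p6), Eng. Its sequence is shown because methylated and hydroxymethylated cytosines of mammalian DNA lie mostly in CpG pairs, which are in capitals here. It spans 250 bases before to 50 after the start, chr2:32646345-32646644 on the plus strand.
Eng: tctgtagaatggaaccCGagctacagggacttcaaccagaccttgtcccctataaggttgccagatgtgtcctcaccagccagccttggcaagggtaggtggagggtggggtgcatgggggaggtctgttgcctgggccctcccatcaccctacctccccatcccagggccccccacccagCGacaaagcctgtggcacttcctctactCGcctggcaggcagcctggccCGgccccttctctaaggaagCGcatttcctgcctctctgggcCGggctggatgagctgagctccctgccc
The window holds 6 CpG pairs (the letters CG, which read the same on both strands), and 56.4% of 32851 promoters of the same length hold at least as many. The median promoter holds 7. At 300 bases it is a small part of the 300 kb bin, so the percentages below do not resolve it.

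The 5 bins differed widely in their level of 5hmC. Pecam1 and Eng lay among the high bins of the genome, Vwf above the middle, and Cdh5 and Esam near the middle. Over all 13 tumours the level was 5.63% ± 1.13 at Pecam1, 5.31% ± 1.08 at Eng, 3.84% ± 1.35 at Vwf, 2.70% ± 0.872 at Cdh5 and 2.05% ± 0.892 at Esam (SD over 13 tumours). These levels stand at the percentiles 94.8, 92.7, 74.8, 55.8 and 44.8 of all bins in the same order. Neighbours in this order changed places in some tumours, and their differences were not tested. Pecam1 was above Eng in 7 of 13 tumours, Eng above Vwf in 11, Vwf above Cdh5 in 10 and Cdh5 above Esam in 10. Among genes farther apart in the order, Pecam1 was above Vwf, Cdh5 and Esam, and Eng above Cdh5 and Esam, in 13 of 13 tumours, and Vwf was above Esam in 11.

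The top position differed with the model. Pecam1 was above Eng in 3 of 4 Phd2 heterozygous and 3 of 3 Phd2 wild-type tumours, but in 1 of 3 sFlk1 and 0 of 3 empty vector tumours. Age, injection and the animals used cannot be told apart here, and this contrast was not tested. Esam was the lowest of the 5 bins in 9 of 13 tumours, Cdh5 in 3 and Vwf in 1.

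Against the mean of all bins of the same tumour, Pecam1 was higher by 2.93 percentage points (SE 0.269, limma adjusted p = 6.43e-11) and above it in 13 of 13 tumours. Eng was higher by 2.68 points (SE 0.289, limma adjusted p = 1.74e-09), also in 13 of 13 tumours. Vwf was higher by 1.23 points (SE 0.289, limma adjusted p = 3.12e-04) in 11 of 13 tumours. Cdh5 stood near the genome-wide mean, with a difference of 0.0716 points (SE 0.224, limma adjusted p = 0.769). Esam was lower by 0.617 points (SE 0.182, limma adjusted p = 0.00287), and 2 of 13 tumours, both Phd2 heterozygous, were above their own mean there. The Esam call was lost when the tumour median took the place of the mean (limma adjusted p = 0.112). Most bins pass this test, 84.1% of them in either direction, so passing it is no mark of these genes.

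The levels were also set beside those of bins with the same number of protein-coding genes. Bins with 6 protein-coding genes, as at Pecam1, had a median of 3.63%, and Pecam1 lay at percentile 93.8 among them. The Eng and Esam bins both hold 11 protein-coding genes, where the median was 3.35%, yet Eng lay at percentile 91.9 and Esam at 24.4. Cdh5 lay at percentile 33.6 of the bins with 9 genes, and Vwf at 61.6 of those with 3.

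**Figure D1:**
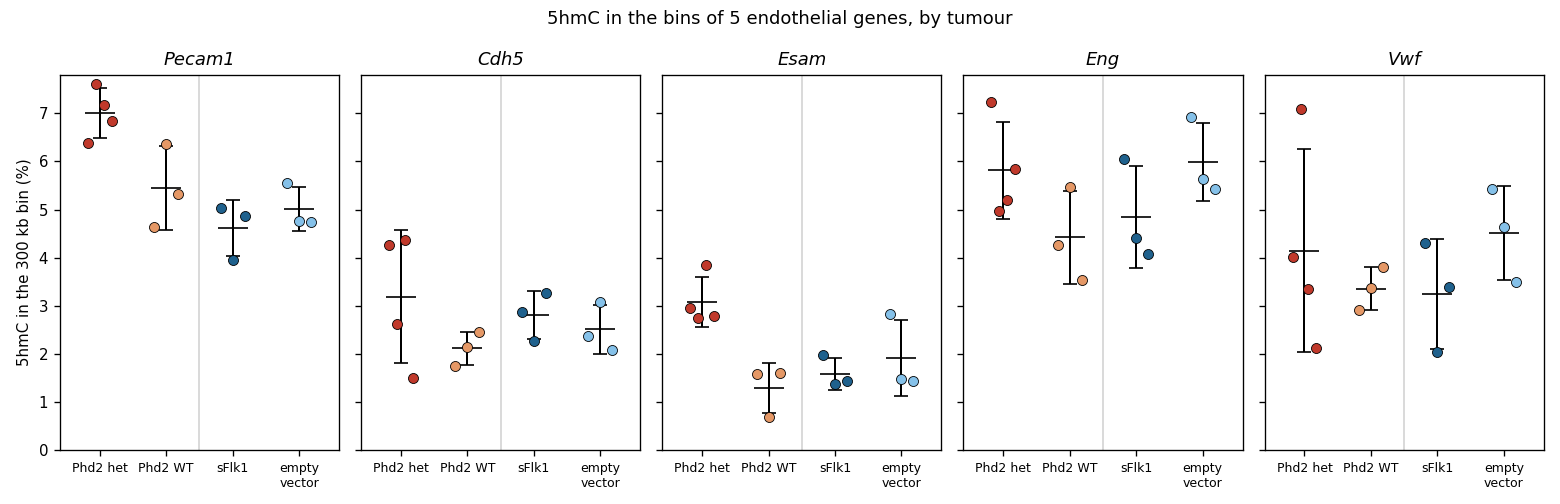
5hmC percentage of the 300 kb bin of each gene (vertical axis, percent) in every tumour, by group; points are tumours, bars the group mean ± SD (n = 4, 3, 3 and 3 from left to right). The 4 Phd2 heterozygous tumours lie above the 3 wild-type tumours at Pecam1 and Esam, and the sFlk1 and empty vector tumours overlap in all 5 bins.

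Among the junction genes, Pecam1, whose product is the adhesion molecule CD31, held 6.38%, 7.62%, 7.18% and 6.84% 5hmC in Phd2 heterozygous tumours, against 4.64%, 6.36% and 5.33% in wild-type tumours. All 4 heterozygous tumours were above all 3 wild-type tumours, the margin between the nearest of them being small. The means were 7.002% ± 0.525 and 5.45% ± 0.864 (SD, n = 4 and 3), a difference of 1.56 percentage points. A two-sided exact permutation test gave p = 0.0286, which is as low as 35 arrangements can give. limma gave an SE of 0.756, an unadjusted p of 0.0495 and an adjusted p of 0.460 over all bins, so the difference did not pass. As a ratio to the tumour's own mean, the Pecam1 bin was at 2.45 ± 0.227 in heterozygous and 2.35 ± 0.515 in wild-type tumours. On that scale the groups overlapped, with an exact permutation p of 0.743. With the tumour's mean subtracted, the difference was 1.03 points (exact permutation p = 0.171).

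Esam, which encodes an immunoglobulin-type molecule of endothelial tight junctions and platelets, held 2.95%, 2.75%, 3.86% and 2.78% in Phd2 heterozygous tumours. In wild-type tumours the Esam bin held 1.58%, 0.684% and 1.60%. The groups did not overlap, and every heterozygous tumour was more than a percentage point above every wild-type tumour. The means were 3.08% ± 0.522 and 1.29% ± 0.524 (SD, n = 4 and 3), a difference of 1.80 points or 139%. The two-sided exact permutation test again gave p = 0.0286, as low as it can. limma gave an SE of 0.511 and an unadjusted p of 0.00162, which placed the bin at rank 37 of 8576. The limma adjusted p over all bins was 0.324, so the difference did not pass.

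The Esam difference also appeared on a scale relative to the tumour. Its bin was at 1.08 ± 0.214 times the tumour mean in heterozygous and 0.543 ± 0.199 times in wild-type tumours, without overlap (SD, n = 4 and 3, exact permutation p = 0.0286). As a difference from the tumour mean, the exact permutation p was 0.0571. Within the Phd2 model the Esam difference ran from 1.49 to 1.95 points when each tumour was left out in turn. It was 0.297 points (limma adjusted p = 0.568) in the mean over 900 kb, that is the bin with its neighbour on each side.

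Cdh5, the gene of VE-cadherin, held 4.27%, 2.63%, 4.37% and 1.49% in Phd2 heterozygous tumours, against 1.76%, 2.15% and 2.45% in wild-type tumours. Heterozygous tumours 1 and 3 were high and tumour 4 was below all wild-type tumours, so the groups overlapped. The means were 3.19% ± 1.38 and 2.12% ± 0.346 (SD, n = 4 and 3; exact permutation p = 0.314). The difference of 1.07 points (SE 0.636) had a limma adjusted p of 0.532. It ran from 0.677 points without heterozygous tumour 3 to 1.64 without heterozygous tumour 4, and was 0.544 with the tumour's mean subtracted.

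Eng, the endoglin gene, held 7.23%, 4.97%, 5.21% and 5.83% in Phd2 heterozygous tumours, against 4.27%, 5.46% and 3.53% in wild-type tumours. Wild-type tumour 2 lay within the heterozygous range. The means were 5.81% ± 1.01 and 4.42% ± 0.974 (SD, n = 4 and 3; exact permutation p = 0.171). The difference was 1.39 points (SE 0.803, limma adjusted p = 0.521). It was 0.918 points without heterozygous tumour 1 and 0.865 with the tumour's mean subtracted. As a ratio to the tumour's mean, the Eng bin was at 2.04 ± 0.406 in heterozygous and 1.91 ± 0.536 in wild-type tumours (SD, n = 4 and 3; exact permutation p = 0.743).

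Vwf held 4.00%, 7.10%, 3.36% and 2.13% in Phd2 heterozygous tumours, against 2.92%, 3.36% and 3.80% in wild-type tumours. Heterozygous tumour 2 stood far above the rest, and the wild-type tumours all lay within the heterozygous range. The means were 4.15% ± 2.11 and 3.36% ± 0.439 (SD, n = 4 and 3; exact permutation p = 0.714). The difference of 0.789 points (SE 0.852, limma adjusted p = 0.753) rested on that tumour, and without it the value was -0.194. The spread within groups at Vwf was wide for its level, 1.43 points, at percentile 97.2 of the bins of its level class. At Pecam1 it was 0.617 points, at percentile 3.85 of its class.

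In all, 5 of 5 bins had a higher mean in Phd2 heterozygous tumours, where 75.1% of all bins did. At a limma unadjusted p under 0.05 there were 2 of 5, Pecam1 and Esam, against 10.8% of all bins. That count was 1 without wild-type tumour 1 or 3 or heterozygous tumour 2 or 3, and 3 without wild-type tumour 2. The share of all bins was not taken in the fits with a tumour left out. Groups without overlap, heterozygous above, were seen in 2 of 5 bins and in 11% of all bins. With adjustment 0 of 5 passed, and 0% of all bins did.

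Each difference was also read beside those of bins of like level. All bins were put into 5 equal classes by their mean over the 13 tumours. Pecam1 and Eng fell into the highest class, where 95.3% of bins were higher in heterozygous tumours and 23.4% separated the groups. The median difference there was 1.25 points, and Pecam1 lay at percentile 65.2 of the class and Eng at 56.6. Esam and Cdh5 fell into the middle class, where 79.6% were higher, 9.74% separated the groups and the median difference was 0.421 points. Esam lay at percentile 99.4 of that class and Cdh5 at 89.4. Vwf lay at percentile 49.2 of its class, whose median difference was 0.806 points. Of the 5 bins, then, Esam lay outside the middle 80% of bins of its class and the other 4 inside it.

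**Figure D2:**
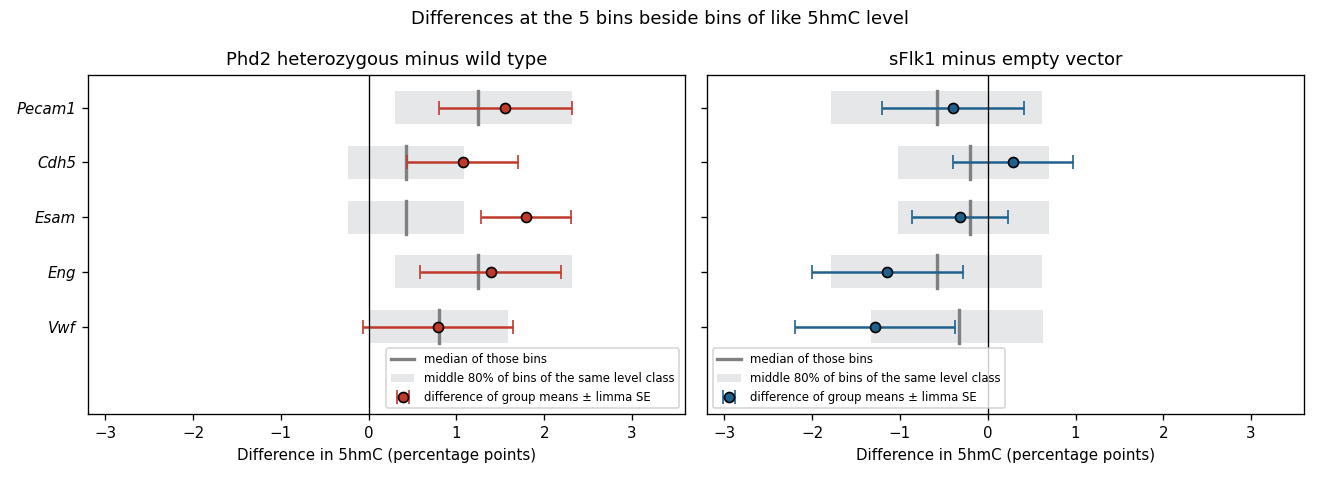
Difference of group means in each bin (points, in percentage points, with limma SE as bars) for Phd2 heterozygous minus wild type on the left and sFlk1 minus empty vector on the right; grey bars span the middle 80% of bins of the same level class and grey ticks mark their median. Esam on the left, at 1.80, lies beyond its grey bar, and in the right panel all 5 points lie within theirs.

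In the sFlk1 model the 5 bins did not separate the groups. The design of 3 against 3 tumours cannot give an exact two-sided permutation p below 0.10. Pecam1 held 5.02%, 3.95% and 4.87% in sFlk1 tumours, against 5.55%, 4.75% and 4.74% in empty vector tumours. The ranges overlapped, and the difference was -0.395 points (SE 0.808, limma adjusted p = 0.941; exact permutation p = 0.60).

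Cdh5 held 2.86%, 2.28% and 3.27% in sFlk1 tumours, against 2.38%, 3.08% and 2.09% in empty vector tumours. It was the 1 gene of the 5 with a higher mean in sFlk1 tumours, by 0.290 points (SE 0.679, limma adjusted p = 0.949; exact permutation p = 0.60). Esam held 1.98%, 1.37% and 1.43% in sFlk1 tumours, against 2.82%, 1.47% and 1.43% in empty vector tumours. Its difference of -0.315 points (SE 0.547, limma adjusted p = 0.922; exact permutation p = 0.60) rested on empty vector tumour 1, and without that tumour it was 0.142.

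Eng held 6.05%, 4.40% and 4.07% in sFlk1 tumours, against 6.91%, 5.63% and 5.42% in empty vector tumours. sFlk1 tumour 1 lay within the empty vector range and the other two below it. The means were 4.84% ± 1.06 and 5.99% ± 0.810 (SD, n = 3 each), and the difference was -1.15 points (SE 0.859, limma adjusted p = 0.796; exact permutation p = 0.30). Vwf held 4.30%, 2.03% and 3.39% in sFlk1 tumours, against 5.43%, 4.63% and 3.49% in empty vector tumours. Its means were 3.24% ± 1.14 and 4.52% ± 0.977 (SD, n = 3 each). The difference of -1.28 points (SE 0.911, limma adjusted p = 0.775; exact permutation p = 0.20) was -0.677 without sFlk1 tumour 2 and -0.823 without empty vector tumour 1. At Eng it was -0.682 without empty vector tumour 1 and -0.760 without sFlk1 tumour 3.

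Of the 5 bins, 4 were lower on average with sFlk1, as were 59.5% of all bins. At a limma unadjusted p under 0.05 there were 0 of 5, against 7.18% of all bins, and 0 of 5 passed with adjustment, against 0.0117%. A separation with sFlk1 below was seen in 8.24% of bins and in 0 of these 5. In their level classes, Vwf lay at percentile 11.3 and Eng at 26.2 of the differences. Pecam1 lay at 57.0, Esam at 42.9 and Cdh5 at 77.1.

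The effects of the 2 models were compared directly in the same fit, the models sharing no tumour. The Phd2 difference minus the sFlk1 difference was 2.54 points at Eng (SE 1.18, limma unadjusted p = 0.0401) and 2.11 at Esam (SE 0.749, limma unadjusted p = 0.00898). It was 2.07 at Vwf, 1.95 at Pecam1 and 0.781 at Cdh5. At an unadjusted p under 0.05 there were thus 2 of 5 bins, against 13% of all bins. With adjustment 0 of 5 passed, against 0.0117% of all bins, with limma adjusted p = 0.259 at Esam and 0.361 at Eng. Scaled to each tumour's mean, the value at Cdh5 was -0.00513, and with the tumour's mean subtracted 0 of 5 bins had an unadjusted p under 0.05. The count was 1 without wild-type tumour 1 or 3, heterozygous tumour 1, sFlk1 tumour 2 or 3 or empty vector tumour 1. The share of all bins was taken only in the main fit.

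**Figure D3:**
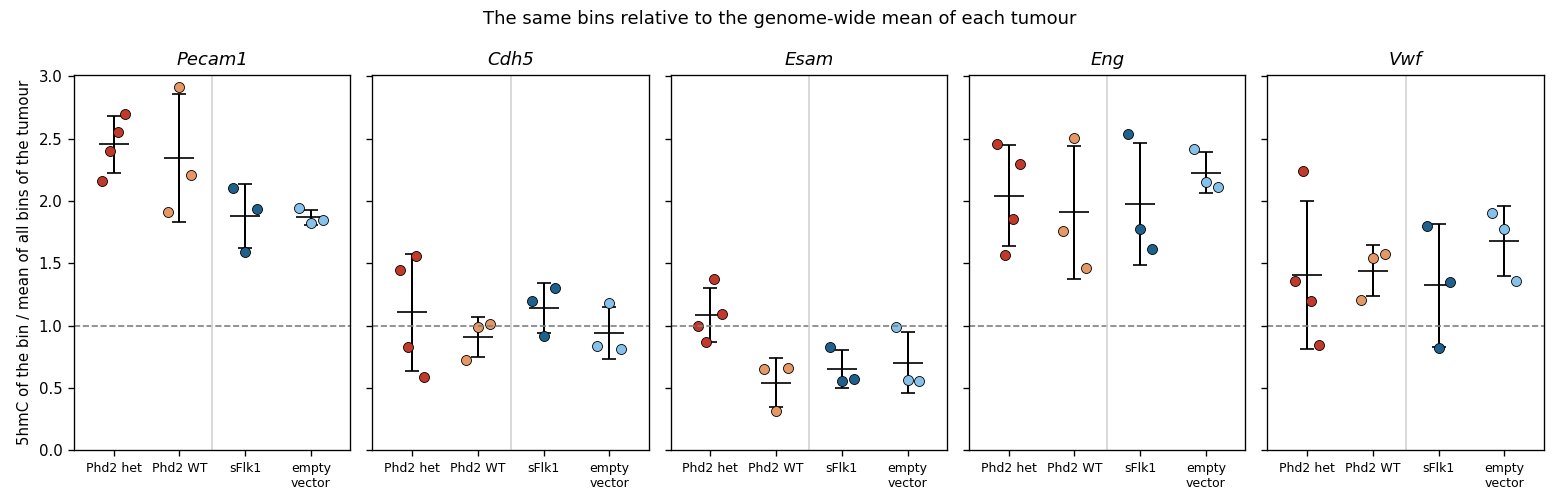
5hmC of each bin divided by the mean of all bins of the same tumour (vertical axis, ratio); points are tumours, bars the group mean ± SD (n = 4, 3, 3 and 3), and the dashed line marks 1. Pecam1 and Eng lie above 1 in all 13 tumours, and Esam separates the Phd2 groups, at 1.08 against 0.543 on average.

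The neighbouring bins showed that the genes lie in different surroundings. Each bin was compared with the mean of the 2 bins on each side in the same tumour. Vwf exceeded these flanks by 1.11 points (SE 0.327, limma adjusted p = 0.00819; 11 of 13 tumours), Cdh5 by 0.817 (SE 0.246, limma adjusted p = 0.00968; 12 of 13) and Eng by 0.788 (SE 0.225, limma adjusted p = 0.00689; 9 of 13). Pecam1 exceeded them by 0.617 (SE 0.242, limma adjusted p = 0.0386; 8 of 13), a call that was lost in 9 of the 13 fits with 1 tumour left out. Esam was near its flanks, at 0.0965 points above them (SE 0.172, limma adjusted p = 0.660). The test was passed by 58.4% of all bins, above or below the flanks. On a log2 scale Esam passed (limma adjusted p = 0.021) and Pecam1 did not (0.106). With 1 bin on each side Pecam1 and Vwf passed, among 4157 bins in all. With 5 bins on each side Eng and Vwf did, among 6050 bins in all. Vwf was thus the gene that exceeded the mean of its flanks at every width tried. It was no local peak, as the adjoining bin on the side of lower coordinates held 4.94%, against 3.84% at Vwf.

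The flanks of Esam differ between its sides. The 2 bins on the side of lower coordinates, around Pknox2 and Ccdc15, held 3.15% and 3.09% over all tumours, and the 2 on the other side held 0.517% and 0.702%. Those low bins carry 13 and 15 annotated olfactory receptor genes, a family that is active in the nose. The Esam bin, with 4 of them, stood between at 2.05%. In Phd2 heterozygous tumours its level of 3.08% was close to the 2.75% of the adjoining Ccdc15 bin, which also holds Robo4, an endothelial identity gene counted below. In wild-type tumours it was 1.29%, against 3.44% in that bin. The bin of Ccdc15 and Robo4 thus went the other way, with a Phd2 difference of -0.686 points (limma unadjusted p = 0.299).

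Of the 4 bins that flank Esam, 0 differed between the Phd2 groups at a limma unadjusted p under 0.05, where 10.8% of all bins did. Their differences ran from -0.686 to 0.452 points. The olfactory receptor bins among them lie in the lowest level class, with a median difference of -0.00471 points. Taken relative to its flanks, the Esam bin was 1.32 points above them in Phd2 heterozygous and 0.603 below them in wild-type tumours, written as 1.32 ± 0.608 and -0.603 ± 0.517 (SD, n = 4 and 3). The difference of 1.92 points (SE 0.470) had a limma unadjusted p of 9.41e-04, rank 9 of 8575 bins. It did not pass over all bins (limma adjusted p = 0.784), where 0% passed, and 5.68% had an unadjusted p under 0.05. This scale was chosen after the data were seen.

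Eng lies in surroundings that were higher in Phd2 heterozygous tumours as a whole. All 4 flanking bins were higher there, by 1.21 to 2.19 points, and 3 of 4 had a limma unadjusted p under 0.05. The shares of all bins were 75.1% and 10.8%. In the highest level class, which holds these flanks except the bin around Nup214, 95.3% were higher, with a median difference of 1.25 points. The bin around Prrc2b held 5.99% against 4.08%, and that around Ralgps1 6.66% against 4.48%. Relative to its flanks the Eng difference was -0.355 points (limma adjusted p = 0.979). Pecam1 was like Eng in this, with all 4 flanks higher, by at most 1.92 points, and a difference relative to them of 0.426 (limma adjusted p = 0.974). The flanks of Pecam1 all lie in the highest level class.

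Vwf lies at a step in 5hmC, and Cdh5 in a stretch of 3 bins between lower ones. On the side of lower coordinates of Vwf the bins held 3.30% and 4.94%, and on the side of Ano2 and Ntf3 they held 0.911% and 1.70%. Around Cdh5 the next bins held 2.47% and 3.13%, and those beyond them, toward Cdh11 and at the Ces genes, 0.863% and 0.942%. Past the Ces genes the level was 3.63% again. In the sFlk1 model Pecam1's 4 flanks were all lower in sFlk1 tumours, by 0.843 to 1.83 points, more than the 0.395 at Pecam1 itself. The share of all bins that were lower was 59.5%, and the median difference of the highest level class was -0.579 points. Of the 20 flanking bins of the 5 genes, 0 had a limma unadjusted p under 0.05 in the sFlk1 model, against 7.18% of all bins.

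**Figure D4:**
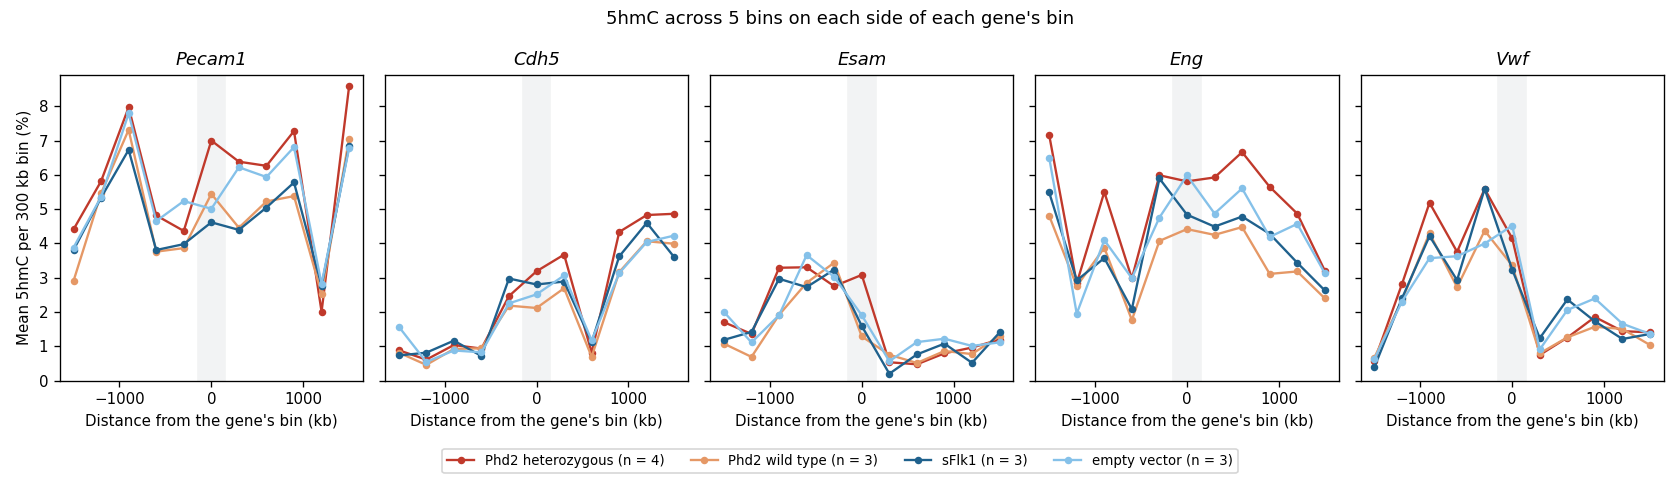
Mean 5hmC per 300 kb bin (vertical axis, percent) across 5 bins on each side of each gene's bin (horizontal axis, distance in kb; grey band, the gene's own bin); lines are group means without error. At Esam the Phd2 heterozygous line stays near 3% in the gene's bin, while the other 3 groups average 1.29%, 1.59% and 1.91% there, and at Eng it lies above the wild-type line across all 11 bins.

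Other genes of cell junctions and of endothelial identity were set beside the 5, and beside all bins. Of all bins, 75.1% were higher in heterozygous tumours and 10.8% had a limma unadjusted p under 0.05. Of 16 further junction genes, 15 had a higher mean in Phd2 heterozygous tumours and 0 had a limma unadjusted p under 0.05; the median difference was 0.681 points. The bin of Cldn5, a claudin of endothelial tight junctions, held 3.86% ± 0.524 against 2.83% ± 0.813 (SD, n = 4 and 3). That of Ctnnb1, the gene of beta-catenin, which binds cadherins, held 3.94% ± 0.946 against 3.06% ± 0.667. Of 24 further identity genes, in 23 distinct bins, 20 were higher and 3 had a limma unadjusted p under 0.05, all higher. Their median difference was 0.555 points. Over all bins the median was 0.385 points, and over the 5 genes 1.39. The difference was larger in bins of higher level. The median levels of both lists, 3.19% and 3.22%, lie in a level class with a median difference of 0.806 points. Among the further genes, Icam2 lies in the bin next to that of Pecam1, and Robo4 in the bin next to that of Esam.

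The 2 identity genes with the smallest p were Procr and Acvrl1. The bin of Procr, the endothelial protein C receptor, held 4.08% ± 0.529 in Phd2 heterozygous and 2.23% ± 0.536 in wild-type tumours (SD, n = 4 and 3; limma adjusted p = 0.333). That of Acvrl1, the gene of ALK1, a receptor that works with endoglin, held 5.60% ± 0.398 against 3.79% ± 0.696 (limma adjusted p = 0.350). Over both lists 0 of 40 genes passed with adjustment.

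In the sFlk1 model, 8 of the 16 junction and 15 of the 24 identity genes had a lower mean in sFlk1 tumours, with 0 at a limma unadjusted p under 0.05 in either list. Of all bins, 59.5% were lower and 7.18% had such a p. The bin of Ctnnb1 held 2.83% ± 0.336 in sFlk1 and 3.90% ± 0.201 in empty vector tumours (SD, n = 3 each; limma adjusted p = 0.740). That of Nectin2, an adhesion molecule, held 3.45% ± 0.942 against 4.58% ± 0.457 (limma adjusted p = 0.750). Among the identity genes, the bin of Sox18, an endothelial transcription factor, held 3.26% ± 0.206 against 4.70% ± 0.645 (limma adjusted p = 0.686). That of Procr held 2.63% ± 0.200 against 3.66% ± 0.730 (limma adjusted p = 0.736). The median difference was 0.00671 points for the junction and -0.216 for the identity genes, against -0.146 over all bins and -0.395 over the 5 genes. In the level class that holds the median levels of both lists it was -0.324 points.

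Lists of genes of other tumour cells were counted in the same way, with 0 genes passing with adjustment in either model. Genes in the same bin share its value. The 7 pericyte, 9 luminal epithelial and 9 leukocyte and platelet genes lie in 6, 8 and 9 distinct bins. The pericyte gene Pdgfrb and the leukocyte gene Csf1r also share a bin. In Phd2 heterozygous tumours 6 of 7 pericyte, 7 of 9 luminal epithelial and 9 of 9 leukocyte and platelet genes had a higher mean, with 0, 2 and 2 at a limma unadjusted p under 0.05, against 75.1% and 10.8% of all bins. In sFlk1 tumours 5 of 7, 7 of 9 and 7 of 9 had a lower mean, against 59.5% of all bins, with 0 in each list at such a p. The median Phd2 differences were 0.609, 0.535 and 1.03 points, and the part of these cells in the values at the endothelial genes was not tested. The median levels of these lists lie in the level class with a median Phd2 difference of 0.806 points.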

How the data were processed

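Tumour DNA was read by TAB-seq. The table the authors deposited gives 5hmC in percent for 9097 bins of 300 kb in 13 tumours. The submitters' processing notes name Bismark 0.13.1 and mm9 without saying what for. Not given in the sources used here were the pooling of calls within a bin and any coverage minimum. The last bin of chromosome 1 ends at 195471971, the GRCm38 length, so GRCm38.p6 RefSeq gene positions were used. All listed genes matched; a gene over several bins went to the one holding most of its body. A value of 0 may mean that 5hmC or that reads were lacking.

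Columns were matched to tumours by the labels' descriptions, and groups come from the titles. Leaving out Y, the mitochondrial genome and bins with 0 in every tumour kept 8576 bins. limma 3.58.1 in R 4.3.3 was fitted to percentages with 4 group means and a trend, with Benjamini-Hochberg adjustment over all bins at 0.05, and was tested on simulated data. Its SE is a shared estimate. Single values had exact two-sided permutation tests, unadjusted. The other junction and identity lists are represented by the 2 genes with the smallest p in each comparison, 1 per bin. The members and lists were chosen with earlier results of these data known. Alternatives were other scales (log2 with 0.5 added, arcsine), scalings, filters and weights, no trend, 900 kb means, a replicate block and each tumour left out; the scale relative to the flanks was added later.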

Additional observations from a re-analysis of the deposited data

How the results depend on the processing

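No member bin passed with limma's adjusted p in either model, or in the difference between models, under any alternative, a count of 0 each time. The depth behind the percentages is unknown, which limits every value. The 2 members at an unadjusted p under 0.05 in the Phd2 model became 1 on the log2 or arcsine scale, with the tumour mean subtracted or scaled out, relative to the flanks, with bins above 0 or without the lowest 10%, and in a fit of the 2 groups alone, and became 3 as 900 kb means, where the Esam difference was 0.297, and 4 with sample weights. With 1 tumour left out the count ran from 1 to 3. In the difference between models, the 2 members became 1 relative to the flanks or scaled to the tumour mean, 0 with the mean subtracted, and 1 to 3 with a tumour left out. Shares of all bins at such a p were 10.8% and 13% in the main fits, and 5.68% relative to the flanks in the Phd2 model. They were not taken under the other settings, so the member counts there have no background. Of all bins, 0 passed in the Phd2 model, 1 on the log2 scale, and 0 to 1 with a tumour left out. In the sFlk1 model 1 passed, 0 as 900 kb means or relative to the flanks, and 1 to 4 with a tumour left out. In the difference between models 1 passed, 2 as 900 kb means, on the arcsine or log2 scale or with the mean subtracted, 3 without a trend, 0 with bins above 0 or relative to the flanks, and 1 to 3 with a tumour left out. Above or below their flanks were 4 members, but 2 with 1 or with 5 bins on each side, and 3 to 4 with a tumour left out. From the tumour mean, 4 differed in each fit with a tumour left out. Over the genome, 5008 bins were above or below their flanks in the main test, 4157 with 1 bin and 6050 with 5 bins on each side.

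Some differences changed sign. At Vwf, the Phd2 difference was -0.0823 scaled to the tumour mean (-0.0316 as a ratio) and, with each tumour left out, -0.194 (without heterozygous tumour 2) to 1.46, and the sFlk1 difference was 0.215 as a 900 kb mean. At Pecam1, the sFlk1 difference was 0.809 relative to the flanks and 0.0290 scaled to the tumour mean (0.0111 as a ratio), and the difference between models was -0.383 relative to the flanks. At Eng, the Phd2 difference was -0.355 relative to the flanks. At Esam, the sFlk1 difference was 0.0453 relative to the flanks and, with each tumour left out, -0.553 to 0.142 (without empty vector tumour 1). At Cdh5, the difference between models was -0.00513 scaled to the tumour mean. The level of Cdh5 against the tumour mean ran up to 0.186 with a tumour left out and was -0.0114, -0.0316 and -0.00768 without heterozygous tumour 1, heterozygous tumour 3 or empty vector tumour 2, and against 1 bin on each side it was -0.120. The causes were not tested.

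The replicate numbers gave no sign of pairing: deviations of same-numbered tumours from their group means correlated at -0.0934 to -0.00429 across bins. A pairing that leaves no shared deviation would not be seen this way. With the replicate block, 0 bins passed in the Phd2 model and 1 in the sFlk1 model, and 2 members had an unadjusted p under 0.05 in the Phd2 model, Cdh5 (adjusted p = 0.309) and Esam (0.244). In the difference between models 3 members did, and the share of all bins at such a p was not taken with the block. Replicate number 4 occurs only in the heterozygous group, so the block fits that tumour apart. The Phd2 differences of the members with the block equal those without that tumour, such as 1.64 points at Cdh5.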

Other observations

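For each of the 5 genes, the bins whose percentages came closest over the 13 tumours were sought among 8196 bins that hold an annotated gene, by the mean absolute difference. At Esam the closest were the bin of the pseudogene Gm18540, at 0.314 percentage points, and the bin of Nnt, which encodes a mitochondrial transhydrogenase, at 0.329. The Nnt bin held 2.57% in Phd2 heterozygous and 1.53% in wild-type tumours, and 1.69% in sFlk1 and 2.00% in empty vector tumours. At Pecam1 the closest were the bins of Epb41l4b (0.542) and Plekha6 (0.585), with 6.38% and 6.35% in Phd2 heterozygous against 5.11% and 4.70% in wild-type tumours. At Eng they were those of Prickle1 (0.561) and Pam (0.690), at Vwf those of Map2 (0.440) and Gm38708 (0.509), and at Cdh5 those of Gm46481 (0.461) and Cep128 (0.481). The median over all these bins was 1.37 points from Esam and 3.18 from Pecam1. The measure takes level and pattern over tumours together. Bins picked by it have group means like those of the gene by construction, so the likeness is no separate result.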
